A study of Homo sapiens with 24 samples.

Results

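The comparison described here is MCF10A cells after 60 min of EGF against the same cells after 30 min, taken over 3 transfections. MCF10A is an established human breast epithelial line that forms no tumours. The arrays were chosen by their labelled time: 6 arrays at 60 min and 6 arrays at 30 min, 12 of the 24 arrays of the study, each time holding 2 arrays of si-miR-20a cells, 2 of si-miR-671 cells and 2 of si-control cells. The question was which transcripts went on rising, which held their level and which were already falling between these times.

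EGF binds its receptor, a tyrosine kinase, and switches on the RAS and ERK kinase cascade. Immediate early genes, many of them transcription factors such as FOS and EGR1, are switched on first because the proteins that start their transcription are already present in the cell. Their products and other factors then drive delayed early genes, among them phosphatases, receptor inhibitors and RNA-binding proteins that turn the pathway down again, and many immediate early mRNAs are short-lived.

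All cells received an oligonucleotide with Oligofectamine: si-miR-20a was directed at miR-20a, si-miR-671 at miR-671-5p, and si-control was a non-targeting control. The growth medium already held EGF beside insulin, cholera toxin, hydrocortisone and horse serum, and whether the cells were starved before stimulation is not given in the sources used here. Arrays without EGF at matching times were not among the groups, so effects of EGF and of elapsed time cannot be told apart. The labels call the replicates biological, and whether they came from separate transfections is not given in the sources used here. Neither mature microRNA was measured, so the arrays do not show how far either oligonucleotide lowered its target.

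Each array gave 1 log2 level for each of 33297 probe sets, and the 19460 with exactly 1 gene symbol, which cover 18417 genes, were tested. The array medians of the 12 arrays ran from 6.56 to 6.57, and across probe sets the replicates of each group correlated with r from 0.977 to 0.992. Among basal breast epithelial markers, KRT5 had a median level of 12.69 at 60 min and 12.66 at 30 min, and KRT14 had 11.98 and 11.90, above the arrays' upper quartiles of 8.26 to 8.28. The luminal markers KRT18 and KRT8 also lay above them, with group means from 11.12 to 11.26 and 10.73 to 10.87 over both times. Luminal KRT19 was lower, with group means from 5.86 to 6.37. The leukocyte marker PTPRC had a median of 4.40 at 60 min and 4.44 at 30 min, below the lower quartiles of 4.95 to 4.97, while the endothelial cadherin CDH5 had 10.10 and 10.27. None of the 33 measured members of the 4 marker lists (7 basal, 8 luminal, 9 mesenchymal, and 9 blood and endothelial) was called. Over all probe sets tested 0.545% were called, so no call among so few members is near that share. In bulk RNA, fewer cells of a type and less RNA per cell cannot be told apart.

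The si-miR-671 arrays at 60 min stood apart from those at 30 min. Over 334 genes that differed by at least 1.5-fold between si-miR-20a and si-control cells in a fit without si-miR-671 arrays, a choice made after the data were seen, the median place of each si-miR-671 array was taken on a scale that puts si-control at 0% and si-miR-20a at 100% at the same time. It was 60.0% and 55.6% at 0 min, 46.5% and 52.3% at 30 min, 98.8% and 104.8% at 60 min, and 95.5% and 84.5% at 120 min. ACAT1, a mitochondrial thiolase, shows it for 1 gene: the means of 2 arrays were 9.37 at 60 min and 10.15 at 30 min in si-miR-671 cells, 9.33 and 9.29 in si-miR-20a cells, and 10.28 and 10.15 in si-control cells. The part of this in the results below was not tested, and in si-miR-671 cells the change from 30 to 60 min cannot be told apart from it. Counts and the leading genes are therefore also given without the si-miR-671 arrays.

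Between 30 and 60 min the change was mostly upward and reached few genes. Of the probe sets tested, 106 passed limma's test at an adjusted p under 0.05 (0.545%), 92 of them higher at 60 min (0.473%) and 14 lower (0.0719%). Of these, 25 were higher by at least 1.5-fold (0.128%) and 8 were lower by at least 1.5-fold (0.0411%). With 1 probe set per gene, 88 genes rose and 12 fell, and 7 rises reached 2-fold. The median rise was 0.47 on the log2 scale, against a median difference of 0.0070 over all probe sets tested. All 100 genes had the same sign in all 3 transfections, and in each of them all 12 pairings of a 60 min array with a 30 min array of the same transfection went the same way. The call was made on the same arrays and favours such agreement, so this is a description. For 74 of the 100, the 6 arrays at 60 min did not overlap the 6 at 30 min, where such separation was seen for 0.918% of all genes in the upward and 0.0706% in the downward direction.

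The count of calls was lower with fewer arrays. Without the si-miR-671 arrays, which leaves 5 residual degrees of freedom in place of 8, 20 probe sets were called, 17 higher and 3 lower. All 106 kept their direction there and an unadjusted p under 0.05, and their differences were 0.72 to 1.28 times those over 3 transfections, with a median of 1.02. The arrays that remained had helped to choose the 106, so these values are no independent check. Without those arrays IL24 differed by 1.41 (adjusted p = 0.0442), PTGS2 by 1.13 (0.00138), CSRNP1 by 1.10 (0.0093) and GPR75 by 1.04 (0.00961). SPRY4 at 1.27 (0.0681), HBEGF at 0.68 (0.0791), DUSP6 at 0.49 (0.0575), MIR27A at -0.72 (0.0608), MIR21 at -0.59 (0.0798) and NFKBIA at -0.52 (0.2) were then not called. Leaving out si-miR-20a instead gave 16 calls and leaving out si-control gave 13. With si-control and si-miR-20a averaged in a fit that took its spread from all 24 arrays, a setting chosen after the data were seen, 158 probe sets were called, among them 86 of the 106. Leaving out 1 array gave 61 calls without si-miR-20a 60 min replicate 2 and 70 without si-control 60 min replicate 2, and 72 to 99 without any other array.

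**Figure D1:**
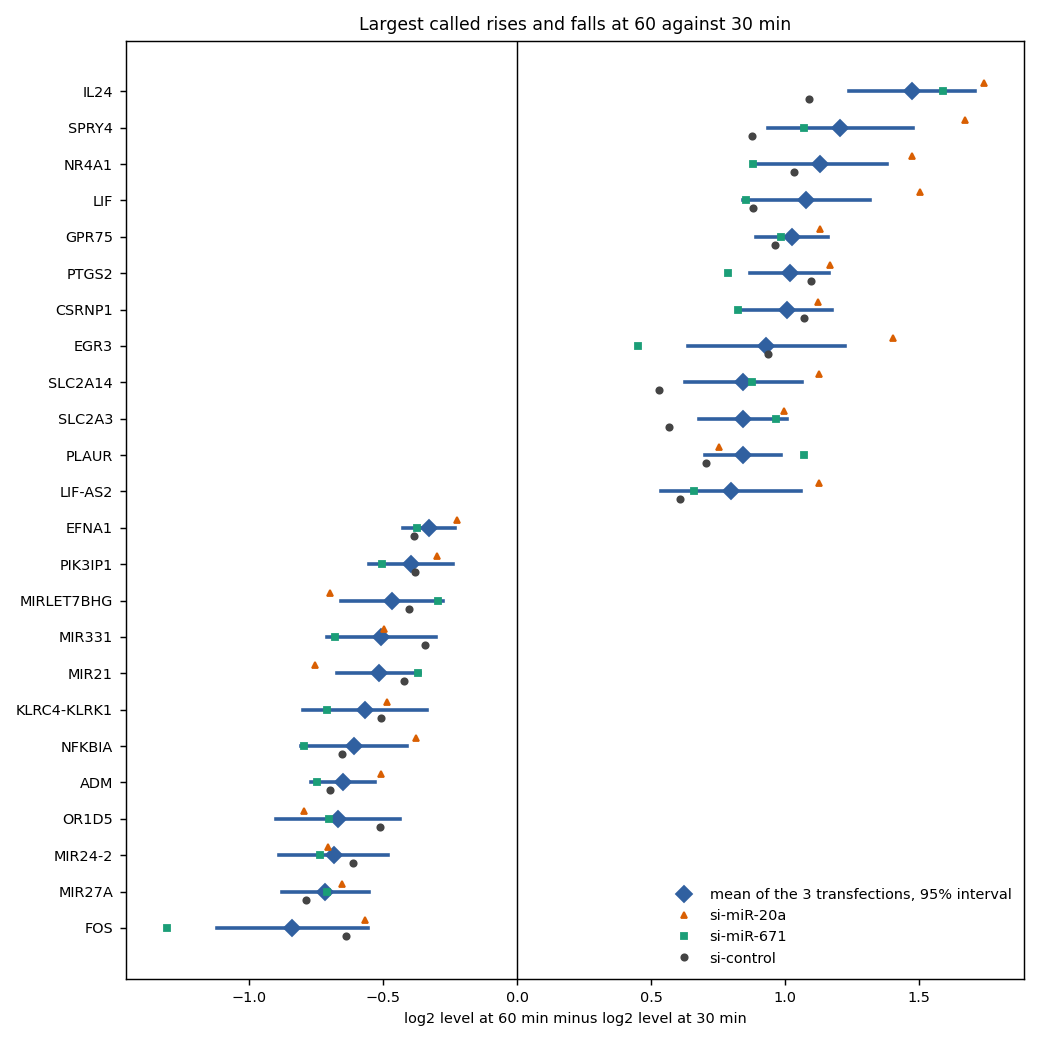
Difference in log2 level, 60 min minus 30 min, for the 12 largest called rises and the 12 called falls, 1 gene per row. Diamonds are means over the 3 transfections with 95% intervals, and small symbols are the means of 2 arrays minus 2 arrays in si-miR-20a, si-miR-671 and si-control cells. IL24 leads the rises at 1.47 and FOS the falls at -0.84, and every small symbol lies on the same side of 0 as its diamond.

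To see what genes raised over the first hour did after 30 min, genes raised early were taken as those whose mean of 30 and 60 min lay at least 1.5-fold above 0 min with an adjusted p under 0.05. This mean gives both times equal weight, so noise at either time does not favour a direction of the later change. It also admits genes that rose mainly after 30 min and leaves out genes that rose and came back by 60 min. Of 297 probe sets called higher in that contrast (1.53%), 89 genes reached 1.5-fold. The smallest early rise among them was that of KLF7 at 0.60, and F3 fell just short at 0.58. After 30 min, 43 of the 89 rose on (48.3%), 30 held (33.7%), 2 decayed (2.25%) and 14 were not resolved (15.7%). Held means not called with a 95% interval of the difference inside 1.5-fold either way, and not resolved means not called with a wider interval. The difference from 30 to 60 min was positive for 81 and negative for 8 of the 89, with a median of 0.45. In the downward direction 45 probe sets were called (0.231%), and no gene among them reached 1.5-fold, so none was lowered early.

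Of the 89, 58 were called and at least 1.5-fold up by 30 min, 25 of the 43 that rose on among them, while for 10, all of which rose on, the 95% interval of the change in the first 30 min lay inside 1.5-fold. Choosing genes by 30 against 0 min instead, where 135 probe sets were called higher (0.694%), gave 65 genes, of which 25 rose on, 26 held, 4 decayed and 10 were not resolved. That choice favours a later fall, and it takes in MIR27A and MIR21, which the mean leaves out. ADM, described below, is in neither set.

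These class sizes moved with the arrays used. Without the si-miR-671 arrays 78 genes were raised early, of which 13 rose on, 29 held, 0 decayed and 36 were not resolved. With si-control and si-miR-20a averaged and the spread taken from all 24 arrays, 51 of 84 rose on, 18 held and 1 decayed. Leaving out single arrays left 15 to 30 genes not resolved, with 30 not resolved and 1 decayed without si-miR-20a 60 min replicate 2.

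The class was set by the difference from 30 to 60 min, so the levels at those times are given as a description. Genes that rose on had median differences from 0 min of 0.72 at 30 min, 1.27 at 60 min and 1.33 at 120 min. Genes that held had medians of 0.70, 0.91 and 0.78 at the same times.

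**Figure D2:**
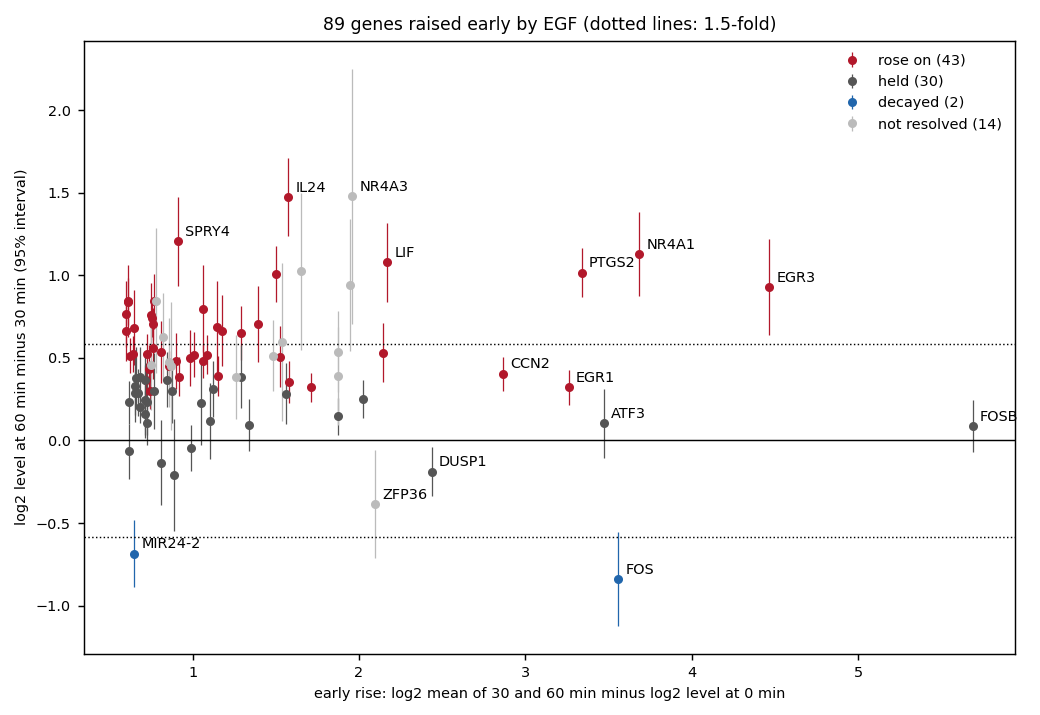
The 89 genes raised early, by their early rise in log2 units (x axis) and their difference in log2 level from 30 to 60 min with its 95% interval (y axis). Colours give the class, dotted lines mark 1.5-fold, and FOS and MIR24-2 are the only genes in the decayed class.

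The largest rises after 30 min joined a cytokine, a receptor pathway inhibitor and an orphan nuclear receptor. IL24, a cytokine of the IL10 family, had levels of 7.10, 7.55 and 8.01 at 60 min (lowest, median and highest of 6 arrays) and 5.80, 6.17 and 6.40 at 30 min. The groups did not overlap. The difference was 1.47 ± 0.11 (SE, 6 arrays per time, 2.78-fold, adjusted p = 0.000206). It followed a rise of 0.84 in the first 30 min, and the median at 120 min was 8.59.

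SPRY4, a Sprouty protein that restrains signalling from receptor tyrosine kinases to ERK, had levels of 7.40, 7.73 and 7.94 at 60 min and 5.99, 6.64 and 6.86 at 30 min. Every array at 60 min stood above every array at 30 min. The difference was 1.21 ± 0.12 (2.31-fold, adjusted p = 0.00145), after 0.31 in the first 30 min. SPRY2 of the same family rose by 0.42 ± 0.051 (adjusted p = 0.00449), with arrays of the 2 times overlapping. ERRFI1, which binds and inhibits the EGF receptor itself, rose by 0.69 ± 0.12 (adjusted p = 0.0439), a call that 2 of 12 single-array omissions left in place (adjusted p up to 0.135). These were the 3 called members among the 14 measured Sprouty, SPRED and receptor-level inhibitors, whose median difference was 0.11. For this and the later list counts, the shares over all probe sets tested were 0.473% called higher and 0.0719% called lower. SPRED2 was not called at 0.14, nor was SOCS3 at -0.26.

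Among the 26 measured immediate early transcription factors, 8 rose, FOS fell and 17 did not pass, with a median difference of 0.24. NR4A1, an orphan nuclear receptor, had levels of 8.56, 8.80 and 9.12 at 60 min and 7.12, 7.69 and 8.33 at 30 min, without overlap. Its difference was 1.13 ± 0.11 (2.19-fold, adjusted p = 0.00145), on top of a rise of 3.12 by 30 min. EGR3, a zinc finger factor, had levels of 9.24, 9.41 and 9.48 at 60 min and 7.87, 8.39 and 9.02 at 30 min. The arrays at 60 min lay closer together than those at 30 min, where the si-miR-671 arrays were highest and the si-miR-20a arrays lowest. Its difference was 0.93 ± 0.13 (adjusted p = 0.0112).

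CSRNP1, a nuclear protein with a cysteine- and serine-rich region, rose by 1.01 ± 0.076 (2.01-fold, adjusted p = 0.000237), FOSL1, an AP-1 subunit, by 0.70 ± 0.10 (adjusted p = 0.0132) and the repressor HES1 by 0.50 ± 0.077 (adjusted p = 0.0168). MAFF and KLF6 rose by 0.48 and 0.36. EGR1 had levels of 11.28, 11.34 and 11.44 at 60 min and 10.85, 10.99 and 11.22 at 30 min. Its rise was small beside its early one, at 0.32 ± 0.048 (adjusted p = 0.0132) after 3.10, and its call was lost without si-control 60 min replicate 2 (adjusted p = 0.0513) or si-miR-20a 60 min replicate 2 (adjusted p = 0.055). HES1 did not stay up: its median was 8.76 at 0 min, 9.51 at 30 min, 10.00 at 60 min and 7.72 at 120 min. NR4A3 had the largest difference of all members of the list, 1.48 ± 0.35, but its 30 min arrays ran from 2.19 to 4.87 and it was not called (adjusted p = 0.136).

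**Figure D3:**
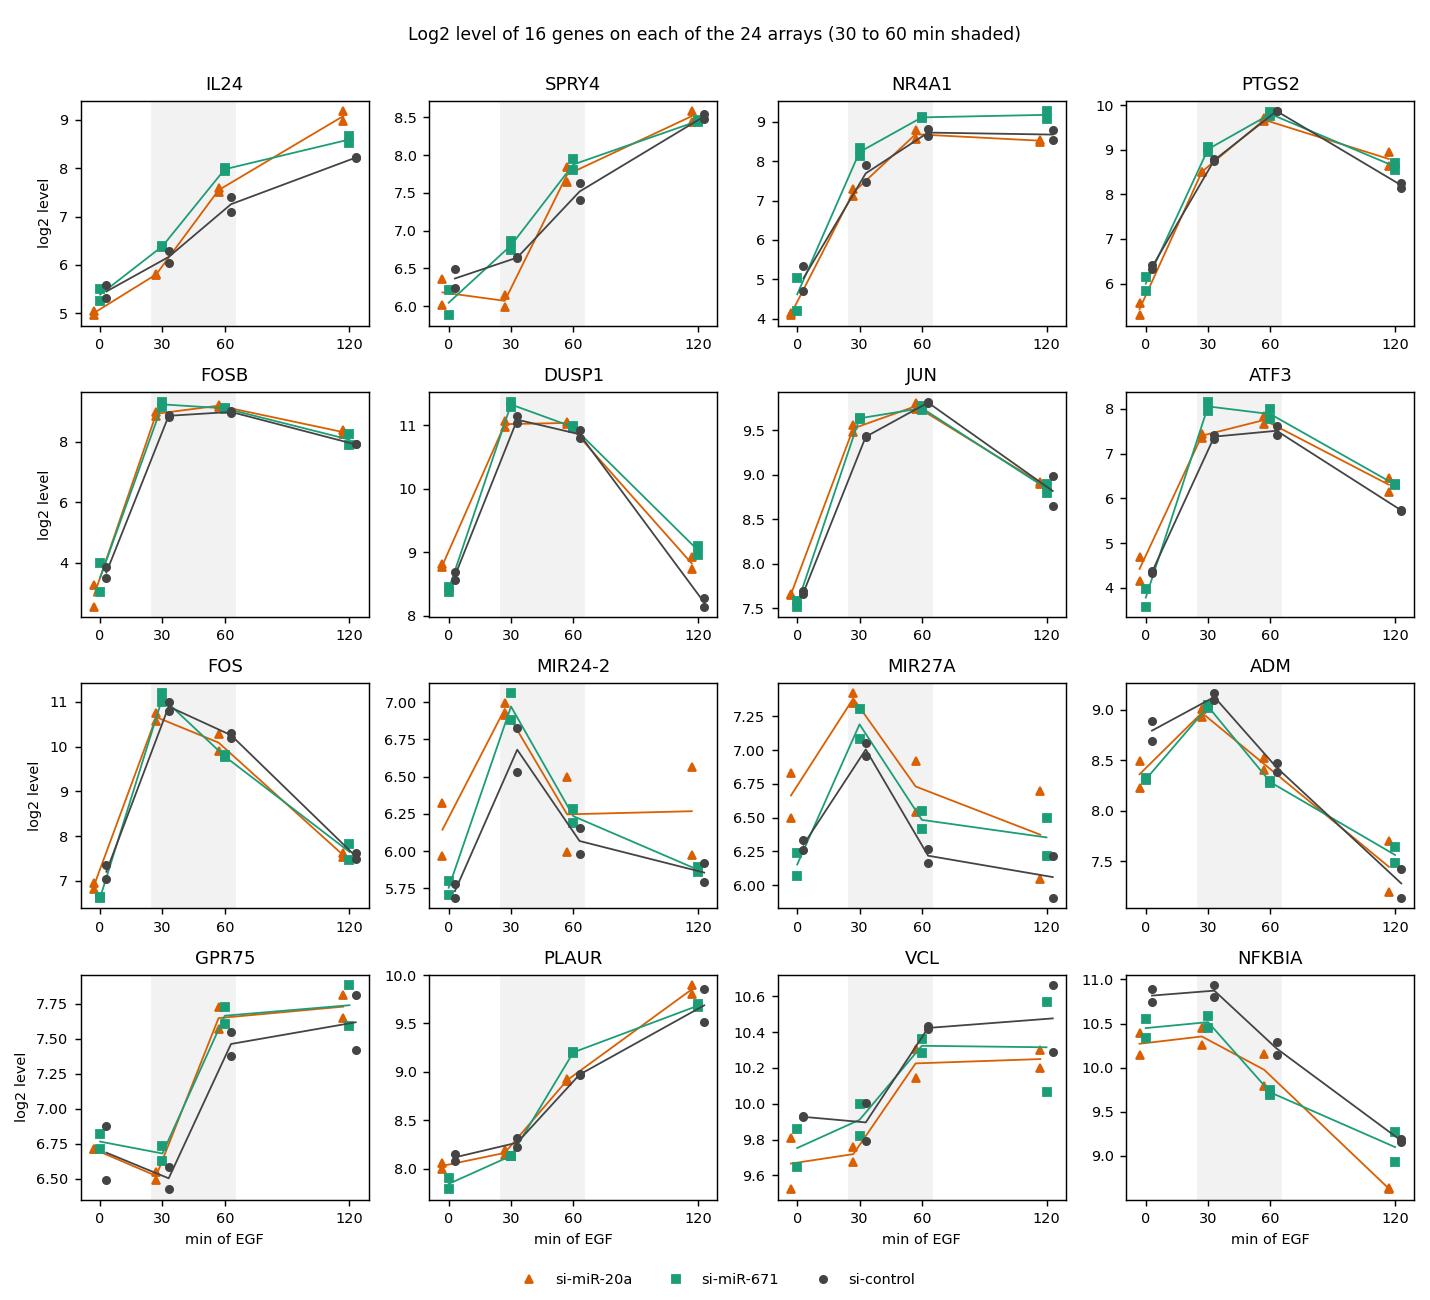
Log2 levels of 16 genes on all 24 arrays against minutes of EGF, with 1 symbol per array and lines through the means of 2 replicates in si-miR-20a, si-miR-671 and si-control cells; the interval from 30 to 60 min is shaded. The top row shows genes that rose on, the second row genes that held, the third row genes that fell after an early rise, and the bottom row genes whose change was first seen after 30 min.

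Feedback phosphatases of the MAP kinases split between the classes. DUSP5, DUSP6 and DUSP4, which act on ERK, were the 3 called members among the 10 measured, with a list median of 0.29. DUSP6 had levels of 10.94, 11.06 and 11.11 at 60 min and 10.50, 10.57 and 10.62 at 30 min, a difference of 0.48 ± 0.047 (adjusted p = 0.00135), and its median at 120 min was 11.44. DUSP5 rose by 0.53 ± 0.08 (adjusted p = 0.0155), a call lost without any of 3 arrays (si-control 60 min replicate 1, 0.0567; si-control 60 min replicate 2, 0.0525; si-miR-20a 60 min replicate 2, 0.0539). DUSP4 rose by 0.32 ± 0.046 (adjusted p = 0.0105). DUSP1, which acts mainly on p38 and JNK, had levels of 10.80, 10.97 and 11.06 at 60 min and 10.97, 11.11 and 11.37 at 30 min. Its groups overlapped and its difference of -0.19 ± 0.066 was not called (adjusted p = 0.425).

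Of 6 measured ligands of the EGF family, 3 rose. HBEGF had levels of 10.36, 10.74 and 10.86 at 60 min and 9.79, 9.95 and 10.28 at 30 min, without overlap, a difference of 0.65 ± 0.074 (adjusted p = 0.00324). EREG rose by 0.56 ± 0.085 (adjusted p = 0.0155) and TGFA by 0.34 ± 0.052 (adjusted p = 0.0161). The EREG call held in 8 and the TGFA call in 9 of 12 single-array omissions (adjusted p up to 0.0532 and 0.0575). TGFA had a difference of 0.06 in the first 30 min, and its median was 8.28 at 30 min, 8.60 at 60 min and 9.67 at 120 min. The list median was 0.25. NRG1, EGF and BTC were not called, at 0.17, -0.03 and 0.0032. None of the 4 measured receptors of the ERBB family was called, with a median of -0.03. With 0.545% called over all probe sets tested, no call among 4 is near that share.

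Of 17 measured cytokines and chemokines, 5 rose and none fell by the test. With 0.473% higher and 0.0719% lower over all probe sets tested, no fall among 17 is near that share. LIF, a cytokine of the IL6 family, had levels of 8.91, 9.00 and 9.21 at 60 min and 7.39, 8.10 and 8.41 at 30 min, without overlap, and a difference of 1.08 ± 0.11 (2.11-fold, adjusted p = 0.00143). LIF-AS2, named for the strand opposite LIF, rose by 0.80 ± 0.12 (adjusted p = 0.0132, 0.0512 without si-miR-20a 60 min replicate 2). Whether its probe set separates the strands is not given in the sources used here. VEGFA rose by 0.47 ± 0.067, IL1A by 0.43 ± 0.066 and IL1B by 0.30 ± 0.044 (adjusted p = 0.0118, 0.0161 and 0.0131). The IL1A call held in 7 of 12 single-array omissions.

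The other 12 members of that list were not called. IL6 held, with a difference of -0.14 ± 0.12, and the neutrophil chemokines CXCL8 and CXCL2 had differences of -0.06 and -0.34, neither called. The list median was 0.04. IL20, which lies in the same cytokine subfamily as IL24, had 6.56, 6.90 and 7.23 at 60 min and 5.35, 6.05 and 6.43 at 30 min, and its difference of 0.94 ± 0.18 just missed the threshold (adjusted p = 0.0578).

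PTGS2, the inducible cyclooxygenase that makes the prostaglandin precursor, had levels of 9.63, 9.80 and 9.87 at 60 min and 8.50, 8.77 and 9.07 at 30 min. All arrays at 60 min were above all at 30 min. Its difference was 1.02 ± 0.067 (2.02-fold, adjusted p = 0.000128), and its median had come down to 8.59 by 120 min. HAS3, a hyaluronan synthase, rose by 0.52 ± 0.061 (adjusted p = 0.00371). These were the only called members of 13 in the list of prostaglandin and lipid mediator enzymes, whose median was 0.05.

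Genes of the cytoskeleton and of the cell surface followed. Of 14 measured targets of the factors SRF and YAP, TAGLN rose by 0.76 ± 0.085, VCL by 0.48 ± 0.059, CCN2 by 0.40 ± 0.046 and CCN1 by 0.32 ± 0.039 (adjusted p = 0.00301, 0.00454, 0.00329 and 0.00449), and the list median was 0.15. CCN1 and CCN2, secreted matrix proteins, had already gained 1.55 and 2.66 by 30 min, whereas VCL, which links integrins to actin, had gained 0.06. PLAUR, the receptor of urokinase, had levels of 8.90, 8.97 and 9.21 at 60 min and 8.13, 8.16 and 8.31 at 30 min. Every array at 60 min was above every array at 30 min, and the difference was 0.84 ± 0.064 (adjusted p = 0.000237). Tissue factor, F3, rose by 0.33 ± 0.045 (adjusted p = 0.00897). These 2 were the called members of 16 in the list of plasminogen activation, coagulation and adhesion.

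Among 15 signalling kinases and G protein regulators, the kinases PIM1 and PLK3 rose by 0.54 ± 0.084 and 0.39 ± 0.053 (adjusted p = 0.0174 and 0.00904). The PIM1 call held in 5 of 12 single-array omissions. In the list of transcriptional and mRNA decay feedback, GADD45A was the only one of 16 called, at 0.45 ± 0.042 (adjusted p = 0.00101). ZFP36, which binds AU-rich mRNAs and hastens their decay, had levels of 8.46, 8.79 and 8.92 at 60 min and 8.70, 9.08 and 9.62 at 30 min, and its difference of -0.39 ± 0.15 was not called (adjusted p = 0.49).

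**Figure D4:**
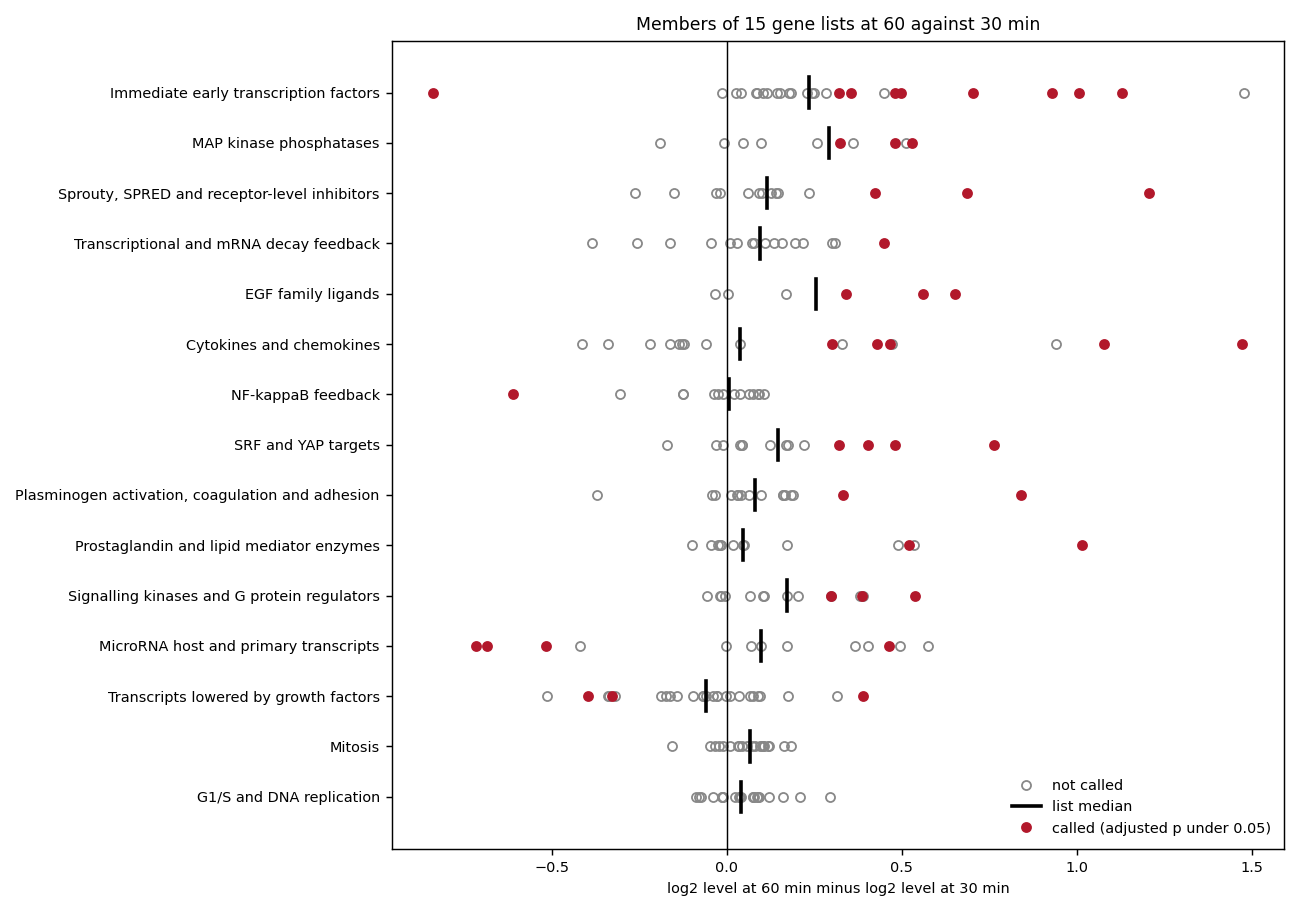
Differences in log2 level, 60 min minus 30 min, for the measured members of 15 gene lists, 1 point per gene. Filled points passed limma's test at an adjusted p under 0.05, open points did not, and the vertical bar is the list's median. Filled points lie to the right of 0 except FOS, NFKBIA, MIR27A, MIR24-2, MIR21, PIK3IP1 and EFNA1.

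Genes that held stood within 1.5-fold of their 30 min level at 60 min, by the interval of the difference. FOSB, an AP-1 subunit, had levels of 8.95, 9.10 and 9.22 at 60 min and 8.82, 8.94 and 9.31 at 30 min. The times overlapped, and the difference was 0.09 ± 0.07 (95% interval -0.07 to 0.24) after a rise of 5.64 in the first 30 min. ATF3 differed by 0.10 ± 0.093 after 3.42, the growth factor response gene IER2 by 0.14 ± 0.049 after 1.80, and EDN1, which encodes the peptide endothelin-1, by 0.09 ± 0.071 after 1.29. JUN had levels of 9.73, 9.79 and 9.82 at 60 min and 9.42, 9.52 and 9.64 at 30 min. Its arrays did not overlap, yet the difference of 0.25 ± 0.052 stayed inside 1.5-fold and was not called (adjusted p = 0.0827). The class also held JUNB, NR4A2, GADD45B, KLF4, SGK1, IER3 and MCL1, and its differences ran from -0.21 to 0.39. They were positive for 25 of the 30 genes, with a median of 0.23, so held does not mean unchanged. The largest lay above the 0.32 of EGR1, which was called and rose on, so the split also depends on the precision of each difference. Members of near-identical families or joined genes, such as SPRR2F, SPRR2G and PTGER4P2-CDK2AP2P2, could share signal with their neighbours on the array.

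FOS was the one member of the immediate early transcription factor list called lower at 60 min. It had levels of 9.76, 10.05 and 10.31 at 60 min and 10.57, 10.90 and 11.19 at 30 min, without overlap. By transfection the arrays read 9.91 and 10.28 at 60 min against 10.57 and 10.75 at 30 min in si-miR-20a cells, 9.76 and 9.80 against 10.99 and 11.19 in si-miR-671 cells, and 10.20 and 10.31 against 10.80 and 10.99 in si-control cells. The difference was -0.84 ± 0.13 (adjusted p = 0.0155) after a rise of 3.98. FOS at 60 min thus still stood 3.14 above 0 min, and its median was 7.58 at 120 min and 6.89 at 0 min. The call was lost without si-miR-20a 60 min replicate 2 (-0.83, adjusted p = 0.0553) and without the si-miR-671 arrays (-0.60, adjusted p = 0.111), and kept at -0.60 with an adjusted p of 0.011 where the spread came from all 24 arrays.

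Promoters of 3 genes, 1 from each class, are shown to set the sequence at their start sites side by side: FOS decayed, DUSP1 held and PTGS2 rose on. They run from 250 bases before to 50 after the start of the gene as annotated in RefSeq, 5′ to 3′ on the gene's strand, and capitals mark TATAAA or, in DUSP1, also TGACGTCA.
FOS (GRCh38.p14, chr14:75278578-75278877, plus strand): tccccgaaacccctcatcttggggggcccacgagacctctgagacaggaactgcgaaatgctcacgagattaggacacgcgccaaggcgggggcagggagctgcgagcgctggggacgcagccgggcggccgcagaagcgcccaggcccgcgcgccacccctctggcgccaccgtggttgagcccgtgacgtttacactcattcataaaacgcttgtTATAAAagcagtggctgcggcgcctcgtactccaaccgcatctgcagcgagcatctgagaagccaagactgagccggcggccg
DUSP1 (GRCh38.p14, chr5:172771146-172771445, minus strand): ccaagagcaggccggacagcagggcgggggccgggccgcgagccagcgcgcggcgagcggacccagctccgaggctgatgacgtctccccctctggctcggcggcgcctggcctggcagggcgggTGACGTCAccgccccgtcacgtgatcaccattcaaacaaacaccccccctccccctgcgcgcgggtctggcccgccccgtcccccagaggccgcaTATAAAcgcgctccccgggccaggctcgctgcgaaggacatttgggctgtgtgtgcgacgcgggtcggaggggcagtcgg
PTGS2 (GRCh38.p14, chr1:186680374-186680673, minus strand): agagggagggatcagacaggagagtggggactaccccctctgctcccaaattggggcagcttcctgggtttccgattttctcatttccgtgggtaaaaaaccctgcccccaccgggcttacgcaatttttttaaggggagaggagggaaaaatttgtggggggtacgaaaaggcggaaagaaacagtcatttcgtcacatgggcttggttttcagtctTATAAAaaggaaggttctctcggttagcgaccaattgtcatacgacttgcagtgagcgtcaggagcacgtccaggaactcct
The first base of TATAAA lies at -33 in FOS, -30 in DUSP1 and -32 in PTGS2 from the start. TATAAA, TGACGTCA (the cyclic AMP response element) and the CArG box, which SRF binds, were searched on both strands, and none of their matches in these 3 promoters overlap except TGACGTCA with its own reverse complement. TATAAA was found for 11.9% of the 14239 tested genes with a promoter, where a gene counted if any of its promoters matched. It was found for 22 of the 65 such genes raised early (33.8%), 11 of 20 that held (55.0%) and 7 of 33 that rose on (21.2%). TGACGTCA was found for 3.1% of the 14239 genes and for 4 of the 65 (DUSP1, MAFF, PPP1R15A and SLC25A25). The CArG box was found for 1.7% and for 4 of the 65 (EGR1, KLF7 and MYADM among them). These counts describe letters anywhere in the 300-base window and not factor binding, and they were not tested.

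The other falls were led by probe sets for microRNA precursors. MicroRNAs are cut from longer transcripts, and a probe set over the hairpin reads those transcripts without telling the mature form apart. MIR27A and MIR24-2 lie in 1 cluster with MIR23A. MIR27A had levels of 6.16, 6.48 and 6.92 at 60 min and 6.96, 7.19 and 7.42 at 30 min, without overlap. Its difference was -0.72 ± 0.073 (adjusted p = 0.00154), after a rise of 0.82 ± 0.086 by 30 min, which left it 0.11 ± 0.086 from the 0 min level.

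MIR24-2 had levels of 5.98, 6.17 and 6.50 at 60 min and 6.53, 6.90 and 7.06 at 30 min. All 6 arrays at 60 min lay below all 6 at 30 min. It fell by 0.69 on the log2 scale (SE 0.091, adjusted p = 0.00821) after a rise of 0.99 ± 0.097. MIR23A moved by -0.42 ± 0.083 and missed the threshold (adjusted p = 0.0665). MIR21, which lies outside that cluster, had 9.33, 9.38 and 9.53 at 60 min and 9.74, 9.86 and 10.16 at 30 min, a difference of -0.52 ± 0.07 (adjusted p = 0.00897) after 0.72 ± 0.077. MIR331 was called lower at -0.51 ± 0.092, but the call was left in place by 1 of 12 single-array omissions (adjusted p up to 0.129). Its group means over both times ran from 3.40 to 4.39, below the arrays' lower quartiles of 4.95 to 4.97.

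MIR221 went the other way. It had levels of 8.28, 8.34 and 8.57 at 60 min and 7.82, 7.91 and 8.04 at 30 min, a difference of 0.46 ± 0.067 (adjusted p = 0.0127), and its cluster neighbour MIR222 moved by 0.58 ± 0.11 (adjusted p = 0.0665). MIR17HG, the host transcript of miR-20a, differed by 0.40 ± 0.094 and was not called (adjusted p = 0.128). Of the 13 measured members of the list of microRNA hosts and precursors, MIR221 rose and MIR27A, MIR24-2 and MIR21 fell, with a median of 0.10. MIR331 and the let-7 host MIRLET7BHG, both called lower, are not on that list.

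The mature sequences of the 4 called precursors of that list, and of the 2 microRNAs targeted by the oligonucleotides, are given 5′ to 3′ from RefSeq with the seed, bases 2 to 8, in capitals.
hsa-miR-27a-3p (GRCh38.p14, chr19:13836447-13836467, minus strand): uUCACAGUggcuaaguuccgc
hsa-miR-24-3p (GRCh38.p14, chr19:13836289-13836310, minus strand): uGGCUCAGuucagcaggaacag
hsa-miR-21-5p (GRCh38.p14, chr17:59841273-59841294, plus strand): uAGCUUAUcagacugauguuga
hsa-miR-221-3p (GRCh38.p14, chrX:45746180-45746202, minus strand): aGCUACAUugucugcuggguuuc
hsa-miR-20a-5p (GRCh38.p14, chr13:91351072-91351094, plus strand): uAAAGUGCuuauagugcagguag
hsa-miR-671-5p (GRCh38.p14, chr7:151238449-151238471, plus strand): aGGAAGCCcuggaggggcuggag
No 2 of these 6 share a seed.

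Among the falls outside the microRNAs, ADM, the peptide hormone adrenomedullin, followed the same up and down course. It had levels of 8.27, 8.40 and 8.52 at 60 min and 8.93, 9.03 and 9.16 at 30 min, without overlap, and a difference of -0.65 ± 0.054 (adjusted p = 0.000479) after a rise of 0.55 ± 0.076. Its median was 7.46 at 120 min and 8.41 at 0 min. It was the only called member of 11 hypoxia-responsive genes, which depends on how that list was drawn. VEGFA, HK2 and SLC2A3, called higher at 0.47, 0.32 and 0.84, were not on it. OR1D5, an olfactory receptor gene of a large family, was called at -0.67 ± 0.10, and its call held in 6 of 12 single-array omissions. Its levels ran from 2.71 to 3.53 at 60 min and 3.26 to 4.38 at 30 min. They all lay below the arrays' lower quartiles of 4.95 to 4.97.

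NFKBIA, the inhibitor that holds NF-kappaB in the cytoplasm, had levels of 9.69, 9.97 and 10.29 at 60 min and 10.26, 10.52 and 10.94 at 30 min. The times overlapped across transfections, whose levels differed, and within each transfection both 60 min arrays were below both 30 min arrays. Its difference was -0.61 ± 0.089 (adjusted p = 0.0131, 0.0512 without si-miR-20a 60 min replicate 2) after 0.07 ± 0.087. It was the only called member of 14 in the NF-kappaB feedback list, in which TNFAIP3 differed by -0.04.

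Falls first seen after 30 min also included EFNA1, a membrane-bound ephrin ligand, at -0.33 ± 0.044 (adjusted p = 0.00778), and PIK3IP1, a restraint on PI3 kinase, at -0.40 ± 0.071 (adjusted p = 0.039). Both belong to a list of 27 transcripts drawn up as lowered by growth factors, of which these 2 fell, RHOB rose and 24 were not called, with a median of -0.06. RHOB, which growth factors are also known to induce, rose by 0.39 ± 0.054 after 0.96 in the first 30 min. ELF3 and DDIT4 of that list had differences of -0.51 and -0.34 and were not called. The calls of PIK3IP1, of MIRLET7BHG, a let-7 host transcript at -0.47 ± 0.086, and of KLRC4-KLRK1, a readthrough of neighbouring genes at -0.57 ± 0.10, held in 1, 1 and 2 of 12 single-array omissions, with adjusted p up to 0.117, 0.127 and 0.129. EFNA1 and PIK3IP1 went on down, with medians at 120 min of 8.44 and 5.69, against 9.42 and 6.80 at 60 min.

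Genes whose rise was first seen after 30 min were taken as those called higher at 60 min while the 95% interval of the change in the first 30 min lay inside 1.5-fold. There were 55 such genes, beside 6 such falls, and 10 of the 55 are also among the 43 that rose on (PLAUR, SLC2A3, SLC2A14, NEDD9, IFFO2, TUFT1, KDM6B, KLF7, TIPARP and UPP1). Without the si-miR-671 arrays there were 8 and 0, and single-array omissions left 29 to 46 rises and 2 to 6 falls, with the fewest rises without si-miR-20a 60 min replicate 2. Both steps use the 30 min arrays, so this is a description with no test. First seen is short for this rule, which allows a rise under 1.5-fold by 30 min. The earlier changes of the 55 ran from -0.28 (TESMIN) to 0.42 (F3). F3 (0.42 and 0.33), DUSP4 (0.41 and 0.32) and IL1B (0.31 and 0.30) gained more in the first 30 min than after. GPR75, a G protein-coupled receptor, had levels of 7.37, 7.59 and 7.72 at 60 min and 6.42, 6.56 and 6.74 at 30 min. The 2 times did not overlap, and the difference was 1.02 ± 0.06 (2.03-fold, adjusted p = 9.18e-05), after -0.15 in the first 30 min.

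SLC2A3, a glucose transporter, rose by 0.84 ± 0.075 and its near-identical paralog SLC2A14 by 0.84 ± 0.098 (adjusted p = 0.000761 and 0.0036), and probes for the pair could read the same transcripts. NEDD9, a scaffold of focal adhesions, rose by 0.77 ± 0.09, IFFO2 by 0.74 ± 0.051, TUFT1 by 0.71 ± 0.043 and the histone demethylase KDM6B by 0.68 ± 0.10 (adjusted p = 0.00371, 0.00017, 9.18e-05 and 0.0132). KDM6B lost its call without si-control 60 min replicate 2 (0.0504) or si-miR-20a 60 min replicate 2 (0.0521). The set also held the clock gene PER2 at 0.55, the sterol sensor INSIG1 at 0.37, and PLAUR, VCL, VEGFA, TGFA, SPRY2, DUSP4 and MIR221. PER2 was the only called member of 14 clock genes, with a call that held in 6 of 12 single-array omissions, and INSIG1 the only one of 8 measured cholesterol genes.

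The 100 called genes shared their direction across the transfections, while the size of the change varied, and the si-miR-671 values include the shift of its 60 min arrays given above. Over the 89 genes raised early, the median difference from 30 to 60 min was 0.61 in si-miR-20a cells, 0.28 in si-miR-671 cells and 0.43 in si-control cells. Their median rise in the first 30 min was 0.66, 0.97 and 0.71 in the same order, and these changes share the 30 min arrays with the later ones. The si-miR-671 value was the lowest of the 3 for 53 of the 89, for 17 of the 43 that rose on, where the si-control value was lowest for 23, and for 23 of the 30 genes that held, whose median was 0.36 in si-miR-20a, 0.04 in si-miR-671 and 0.22 in si-control cells. The 43 genes that rose on were positive in all 3 transfections.

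**Figure D5:**
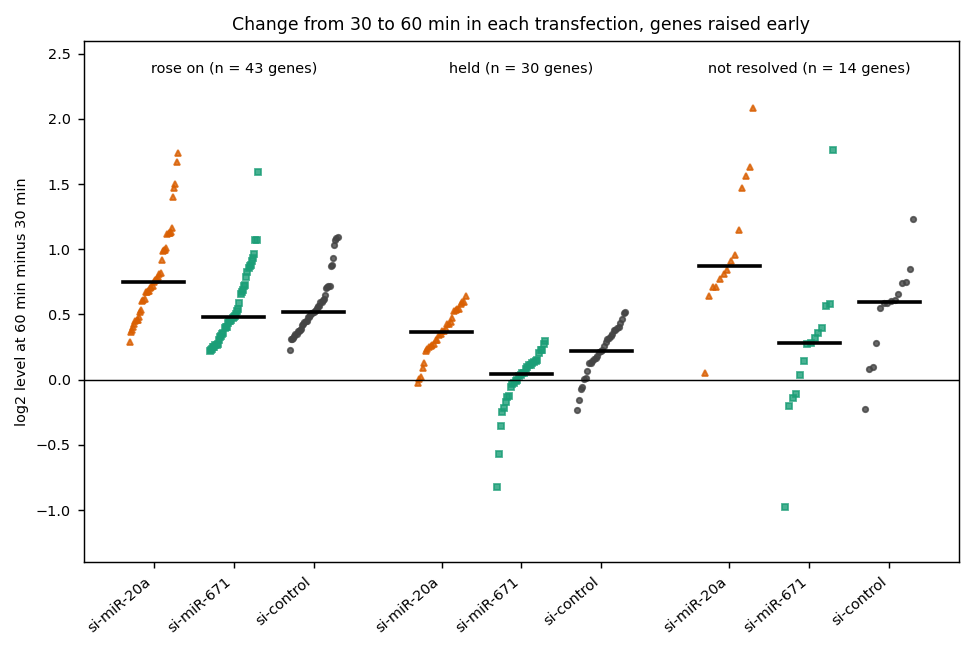
Differences in log2 level, 60 min minus 30 min, of the genes raised early in si-miR-20a, si-miR-671 and si-control cells, with 1 point per gene sorted by size and a bar at the median. The si-miR-671 medians of 0.48, 0.04 and 0.28 lie lowest in the 3 classes shown, and the 2 decayed genes are not drawn.

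No difference in the change between transfections passed the test. The moderated F with 2 degrees of freedom called 0 of 19460 probe sets (0%), while 2956 had an unadjusted p under 0.05 (15.2%), 44 of the 89 genes raised early among them. Single genes ran as follows: EGR3 differed by 1.40 in si-miR-20a, 0.45 in si-miR-671 and 0.94 in si-control cells (unadjusted p = 0.00032, adjusted p = 0.252), ZFP36 by 0.05, -0.98 and -0.23 (adjusted p = 0.252), and FOS by -0.57, -1.31 and -0.64 (adjusted p = 0.265). The smallest p belonged to CFB, complement factor B, at 0.14 in si-miR-20a, -0.90 in si-miR-671 and 0.12 in si-control cells (adjusted p = 0.19), followed by STARD6, NHLH1, FAM47B, ACAT1, PHYHIP, TTC5 and GNRHR. The count depended on the setting: 4 probe sets were called with 1 mean per group over all 24 arrays, 4 with the brighter probe sets only and 102 with a trended, robust prior.

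Within single transfections fewer probe sets passed than over the 3 together. In si-miR-20a cells 37 probe sets were higher (0.19%) and 3 lower (0.0154%), in si-miR-671 cells 19 were higher (0.0976%) and 20 lower (0.103%), and in si-control cells 9 were higher (0.0462%) and 1 lower (0.00514%). The si-miR-671 counts were larger than those over the 3 transfections in 2 other settings: 302 higher and 389 lower against 182 called in all with the brighter probe sets only, and 279 and 364 against 163 with a trended, robust prior. The counts also moved with single arrays: without si-miR-20a 60 min replicate 1, 6 probe sets rose within si-miR-20a cells, and without si-miR-20a 60 min replicate 2, 20 were lower. Without si-miR-671 30 min replicate 1, 0 were higher and 0 lower in si-miR-671 cells, and without si-miR-20a 60 min replicate 1, 35 were lower. Without si-control 30 min replicate 1, 0 were called in si-control cells in either direction. Of the 53 called genes named by rule, 12 kept their call without the si-miR-671 arrays: IL24, NR4A1, LIF, GPR75, PTGS2, CSRNP1, EGR3, PLAUR, ADM, DUSP5, IFFO2 and TUFT1. In the setting that averaged si-control and si-miR-20a with the spread of all 24 arrays, 47 of the 53 were called.

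Of 121 measured members of 8 lists for programmes that growth factors reach later, 0 were called by limma at 60 against 30 min, which is near the 0.545% called over all probe sets. At an unadjusted p under 0.05 there were 19 of the 121, a larger share than the 1658 of the 19460 probe sets. These were the lists of mitosis (20 measured, median 0.07), G1/S and DNA replication (21, 0.04), the p53 targets (14, -0.0055), the unfolded protein response (14, 0.05), heat shock (10, 0.07), interferon response (17, 0.10), ribosome biogenesis (14, 0.08) and the Notch pathway (11, -0.02). The 0 depends on how the lists were drawn, and the called genes HES1, GADD45A, E2F7 and MAK16 are in none of the 8. An uncalled member is not shown to be unchanged.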

How the data were processed

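RNA from 24 arrays of MCF10A cells was measured on Affymetrix Human Gene ST arrays, version 1.0, per the labels. The authors deposited 1 log2 value per probe set, made with Affymetrix Expression Console per the submitters' processing notes. Its version, the summarisation and the normalization are not given in the sources used here, and base 2 was inferred from the range of the values. Arrays carry no read depth, and the number of arrays limits the precision.

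The deposited log2 values were used without further normalization. Of 33297 probe sets, 19460 had exactly 1 symbol in the platform annotation, 1754 had several and 12083 had none listed there. Differences came from limma 3.58.1 in R 4.3.3 (lmFit, eBayes) with time and an additive block for transfection over the 12 arrays at 30 and 60 min, which left 8 residual degrees of freedom beside 2.34 prior ones. p-values were adjusted after Benjamini and Hochberg over all 19460, and those under 0.05 were called. Errors are model standard errors, and folds are linear ratios from the log2 differences. The early choice of genes used the 18 arrays at 0, 30 and 60 min with the same block. Changes within transfections and their difference (moderated F) came from 1 mean per group. The p-values set each difference against the spread between these arrays, which may be technical in part. In the additive fit that spread includes differences of the change between transfections beside those between replicates.

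For genes with several probe sets the one brightest on average over all 24 arrays stood for the gene. Genes were named by rule: the 12 largest rises and falls called with the same sign in all transfections, the 8 largest of each early and later class, up to 4 called members of each list, the 8 smallest p for a difference between transfections, and FOS, EGR1 and MIR17HG. Other members of the lists are named with their values. The comparison, the members and the 30 lists were chosen with earlier results of these data known. A list of 13 mitochondrially encoded genes had 0 measured members. Alternatives were quantile normalization, median centring, brighter probe sets only, all probe sets, a trended robust prior, a replicate block, 1 transfection or 1 array left out, all 24 arrays in 1 fit, and other folds or contrasts for the early choice. Scripts were tested on simulated data. Sequences are from RefSeq tables of GRCh38.p14, in which 14239 of 18417 genes had a promoter, and figures were made with Python 3.11.15 and matplotlib 3.10.9. A result for a member of the list of signalling kinases and G protein regulators is not reported here.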

Additional observations from a re-analysis of the deposited data

Results flagged for a closer look

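Outside the named probe sets, 35 of the 13837 probe sets without exactly 1 gene symbol were called at 60 against 30 min with limma (0.253%), 27 higher and 8 lower, with differences from 2.20 to -1.13 on the log2 scale. They were singled out because they carry a signal in probe sets that the comparisons above did not use. The adjustment ran over all 33297 probe sets. Of the 35, 2 had several symbols (EZR with ROS1, and MIR205HG with MIR205) and 33 had none listed in the platform annotation, so they are given as counts.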

How the results depend on the processing

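The 106 probe sets called at 60 against 30 min kept their sign under every alternative in which they were tested. These alternatives reuse arrays by which the 106 were chosen, so the kept sign is a description and no independent support. Scaling moved the median of all probe sets by under 0.1. The counts were not stable. Fits with fewer arrays also had fewer residual degrees of freedom, and the part of this in the counts was not tested. Other causes were not tested either. Of the named genes' values under the alternatives, 1303 of 1588 kept direction and side of the threshold, 251 lost and 9 gained a call, and 25 changed sign, none of them for a called gene. The precision rests on 6 arrays per time and 2 per transfection and time.

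With brighter probe sets only, 182 were called (164 higher), 15 higher and 5 lower by at least 1.5-fold. Of genes raised early 12 held, 1 decayed and 4 were not resolved, and 124 rises and 12 falls were first seen after 30 min. Within si-miR-20a cells 143 were higher and 22 lower, within si-miR-671 cells 302 and 389, and within si-control cells 32 and 5. The change differed between transfections for 4 probe sets, and between si-miR-671 and si-control for 10. With all probe sets tested, 15 were lower by at least 1.5-fold, 2 falls were first seen after 30 min, and 2 were higher and 0 lower within si-control cells. After quantile normalization 3 falls were first seen after 30 min.

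With the trended robust prior, 163 were called (146 higher), and 98 rises were first seen after 30 min. Within si-miR-20a cells 146 were higher and 26 lower, within si-miR-671 cells 279 and 364, and within si-control cells 51 and 12. The change differed between transfections for 102, and between si-miR-671 and si-control for 65. With 1 mean per group over all 24 arrays, 195 were called (173 higher, 22 lower), 6 early genes were not resolved, and 120 rises and 11 falls were first seen after 30 min. Within si-miR-20a cells 68 were higher and 5 lower, within si-miR-671 cells 44 and 46, and within si-control cells 17 and 2, and the change differed between transfections for 4, and between si-miR-671 and si-control for 4.

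Replicate numbers did not pair the arrays: over 15 pairs of groups the correlation of deviations ran from -0.33 to 0.45, with 7 above 0.1. With the replicate block 98 were called, 93 of the 106 among them, 5 were lower within si-miR-20a cells, and 5 were higher and 0 lower within si-control cells.

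Without the si-miR-671 arrays, 20 were called (17 higher, 3 lower), 14 and 3 by at least 1.5-fold. Of early genes 13 rose on, 0 decayed and 36 were not resolved, and 8 rises and 0 falls were first seen after 30 min. Uncalled CFB, ACAT1, PHYHIP and TTC5 turned to 0.13, 0.087, 0.17 and -0.085. Without the si-miR-20a arrays, 16 were called (11 higher, 5 lower), 10 and 5 by at least 1.5-fold. Of early genes 10 rose on, 57 held, 0 decayed and 30 were not resolved, and 4 rises and 2 falls were first seen after 30 min. There 2 genes were lowered early, of which 1 held and 1 was not resolved. Uncalled FOSB, ATF3, EDN1 and FAM47B turned to -0.0015, -0.021, -0.011 and -0.085. Without the si-control arrays, 13 were called (11 higher, 2 lower), 11 and 2 by at least 1.5-fold. Of early genes 10 rose on, 0 decayed and 50 were not resolved, 1 gene lowered early held, and 5 rises and 0 falls were first seen after 30 min. Uncalled STARD6, NHLH1, FAM47B and GNRHR turned to -0.067, 0.18, -0.16 and 0.24.

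With si-control and si-miR-20a averaged over all 24 arrays, chosen after seeing the data, 144 were higher, 45 by at least 1.5-fold. Of early genes 18 held and 1 decayed, 92 rises were first seen after 30 min, and CFB, ACAT1, PHYHIP and TTC5 again turned to 0.13, 0.087, 0.17 and -0.085.

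Choosing early genes at 2-fold left 42, of which 21 rose on, 11 held, 1 decayed and 9 were not resolved. A tighter limit for held left 9 held and 35 not resolved. Choosing them by 30 against 0 min, which favours a later fall, gave 25 that rose on and 4 that decayed.

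Leaving out single arrays gave ranges of 61 to 99 called, 52 to 87 higher, 9 to 14 lower, 20 to 29 and 6 to 9 by at least 1.5-fold, 88 to 95 raised early, 30 to 49 that rose on, 24 to 33 held, 1 to 2 decayed, 15 to 30 not resolved and 0 to 1 lowered early, which then held. Rises first seen after 30 min ran from 29 to 46 and falls from 2 to 6. Higher and lower counts ran from 6 to 33 and 0 to 20 within si-miR-20a cells, 0 to 18 and 0 to 35 within si-miR-671 cells, and 0 to 5 and 0 to 1 within si-control cells, and the change differed between transfections for 0. Uncalled FAM47B ran from -0.029 to 0.13 and GNRHR from -0.15 to 0.056, on both sides of 0.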
